A study of Rattus norvegicus with 12 samples.

Results

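The phase II conjugation enzymes measured here are glutathione S-transferases (Gst, and the membrane-bound Mgst), UDP-glucuronosyltransferases (Ugt) and sulfotransferases (Sult) of the rat renal cortex. Members were all genes whose symbol starts with Gst and a letter, or with Mgst, Ugt or Sult and a digit, and that had a probe that the scanner software scored well above background in every rat of some group. Of 83 such symbols in the RefSeq table, 14 of them pseudogenes, 53 had a probe and 40 were members, out of 29603 features tested. The members comprised 21 Gst, 3 Mgst, 9 Ugt and 7 Sult genes, and 38 of the 40 were well above background on all 12 arrays. The remaining members, Mgst2 and Sult4a1, were above background on 2 of the 3 arrays of TBA-treated isoflurane rats.

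Expression was measured with 1-colour Agilent arrays, 1 per rat. The renal cortex came from 12 male Sprague-Dawley (Crl:CD(SD)) rats, which were 5 weeks old when bought. There were 4 groups of 3 rats, which the series' design text calls biological replicates. Rats were given plain water as vehicle, or TBA (tert-butyl alcohol), a solvent that also arises from fuel ethers in the body, at 1000 mg/kg/day for 4 weeks. They were bled 24 h after the last dose, under either CO2-O2 or isoflurane. The design therefore holds vehicle and TBA rats under CO2-O2, and vehicle and TBA rats under isoflurane. No rat was spared an anesthetic, so every group carries one.

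Phase II enzymes attach a polar group to a drug, hormone or reactive metabolite so that it can be excreted. Glutathione S-transferases add glutathione, whose conjugates are trimmed to mercapturates in the proximal tubule. UDP-glucuronosyltransferases add glucuronic acid from UDP-glucuronate inside the endoplasmic reticulum, and sulfotransferases add sulfate from the donor PAPS in the cytosol. The proximal tubule is the main site of these enzymes in the kidney, and a glucuronide and a sulfate of TBA are among the urinary products described in rats. Genes of several of these families lie side by side in the genome, and the Ugt1a transcripts have separate first exons joined to shared downstream exons.

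A level below is the log2 processed signal of a probe minus the 75th percentile of its array, so 0 is that percentile and 1 unit is a 2-fold change. Levels of different genes come from different probes and are not set against each other. Differences between groups are log2 differences, fitted with limma over all 29603 features and called at a Benjamini-Hochberg adjusted p under 0.05.

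There were 3 slides and 2 scan days, and 61.6% to 71.0% of the probes were well above background. On slide 1, scanned on the first day, TBA rat 3 of the CO2-O2 arm lay beside all vehicle rats of that arm. On slide 2 were that arm's TBA rats 1 and 2 together with all isoflurane controls, and on slide 3 only isoflurane rats given TBA. Under isoflurane, treatment and slide therefore cannot be told apart, and under CO2-O2 only 1 TBA rat shared a slide with its controls. As to the labelled tissue, 11 genes that mark segments S1-S2 of the proximal tubule had a mean level of 5.34 to 5.77 in the 12 rats. Podocyte markers, which belong to the cortical glomeruli, had 0.90 to 1.34 over 5 genes. Markers of the thick ascending limb had 2.24 to 2.69, of the distal convoluted tubule 3.54 to 4.14 and of collecting duct principal cells 3.25 to 3.80. Such levels come from different probes, so they do not test the tissue label.

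The start regions of the 4 measured Ugt2b genes are printed here because the levels of 3 of them varied together from rat to rat while Ugt2b7 did not follow. Each is the RefSeq window of assembly GRCr8 from 250 bases before to 50 after the start of the gene, 5′ to 3′ on the plus strand. Windows were found for 35 of the 40 members. Ugt2b15 lies at chr14:21122616-21122915, Ugt2b37 at chr14:21171886-21172185, Ugt2b35 at chr14:21208191-21208490 and Ugt2b7 at chr14:21251285-21251584. Capitals mark the longest stretch that all 4 windows share, which is 25 bases long.
Ugt2b15: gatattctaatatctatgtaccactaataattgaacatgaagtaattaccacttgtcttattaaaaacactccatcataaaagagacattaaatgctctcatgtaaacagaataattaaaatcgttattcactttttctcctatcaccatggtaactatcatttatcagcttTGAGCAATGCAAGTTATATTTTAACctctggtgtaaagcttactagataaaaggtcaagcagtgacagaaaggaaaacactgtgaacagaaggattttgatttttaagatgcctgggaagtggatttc
Ugt2b37: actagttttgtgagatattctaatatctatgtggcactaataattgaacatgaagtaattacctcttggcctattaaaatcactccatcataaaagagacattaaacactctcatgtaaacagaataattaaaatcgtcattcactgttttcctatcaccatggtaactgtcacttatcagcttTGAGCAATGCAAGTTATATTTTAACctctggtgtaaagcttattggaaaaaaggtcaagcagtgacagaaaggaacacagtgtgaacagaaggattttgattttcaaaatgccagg
Ugt2b35: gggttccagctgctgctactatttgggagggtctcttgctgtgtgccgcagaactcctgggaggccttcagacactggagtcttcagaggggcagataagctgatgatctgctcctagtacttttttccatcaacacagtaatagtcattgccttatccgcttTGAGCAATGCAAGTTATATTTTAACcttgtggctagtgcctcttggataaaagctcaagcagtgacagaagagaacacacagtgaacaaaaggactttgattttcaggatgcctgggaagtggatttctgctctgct
Ugt2b7: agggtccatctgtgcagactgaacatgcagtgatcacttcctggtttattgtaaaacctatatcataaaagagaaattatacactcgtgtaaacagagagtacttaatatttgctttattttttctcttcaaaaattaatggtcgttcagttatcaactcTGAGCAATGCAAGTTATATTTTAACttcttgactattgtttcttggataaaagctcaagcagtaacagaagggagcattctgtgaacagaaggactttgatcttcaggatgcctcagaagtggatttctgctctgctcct

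The 25-base Ugt2b stretch began at -78 from the start of Ugt2b15, at -87 for Ugt2b35, at -66 for Ugt2b37 and at -90 for Ugt2b7, and it occurred in 7 of 33469 RefSeq start windows, or 0.0209%. The other 3 windows belong to Ugt2b, Ugt2b7l1 and an unnamed locus. With gaps left out, the Ugt2b15 and Ugt2b37 windows were identical at 93.0% of aligned bases, and the other pairs among these 4 Ugt2b genes at 71.2% to 76.9%. Ugt2b15 had 71.2% with Ugt2b35 and 76.9% with Ugt2b7, so likeness of the windows did not follow which genes varied together. The windows of Ugt1a1, Ugt1a2 and Ugt1a6, on chromosome 9, were less alike, at 59.9% to 65.9%. The core of the antioxidant response element, TGACNNNGC, was in 12.1% of all windows and in 7 members (Gsta1, Gsta2, Gsta3, Gstm5, Gstm7, Gstp1 and Gstz1). The core of the Ah receptor element, GCGTG, was in 29.7% of all windows and in 12 members. Both cores were sought on both strands, and their matches may share bases. A match describes the letters of a window and is not evidence of binding.

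The first question of the design is whether TBA changed these genes. Under CO2-O2, 0 of the 40 members passed limma's adjusted threshold, against 0.149% of all features (44 called). At an unadjusted p under 0.05 there were 4 of 40 members, against 14.3% of all features. The median difference over the members was 0.09 and 23 of 40 were higher in TBA rats, beside a median of 0.02 and 53.6% higher over all features. The groups did not overlap for 0 members on the higher side, against 11.9% of features, and for 4 on the lower side (Gsta1, Sult2b1, Ugt1a9 and Ugt8), against 9.07%. With slide or scan day as a term, a fit that rests on the single TBA rat of slide 1, the median over the members was -0.12.

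Under isoflurane 0 of 40 members passed again, against 0.395% of all features (117 called), and 12 members (30.0%) had an unadjusted p under 0.05 against 17.8% of features. The median difference was 0.22 and 30 of 40 members were higher in TBA rats, beside a median of 0.02 and 53.6% higher over all features. The isoflurane TBA rats lay wholly above their controls for 12 members (30.0%), against 14.3% of features, and wholly below for 3 (7.5%), against 9.68%. Ugt1a1, Ugt1a2 and Ugt1a6 varied together from rat to rat, as did Gsta2, Gsta4 and Gsta5. All of these are in both counts of 12, which are therefore not counts of separate observations. In the mean of both arms 0 members passed against 1.88% of features (558 called). At an unadjusted p under 0.05 there were 12 members (30.0%, against 19.0%). The median over the members was 0.16, and 0.06 with scan day as a term. Of the 15 other settings tried, 3 gave a single called member each (Gsta2 under isoflurane by normexp and by a trended robust spread, and Gsta1 in the mean of both arms by quantile normalization). None of the settings that left out an array gave any, but under isoflurane these called only 0 to 98 of 29603 features.

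The data bound these differences more tightly for some members than for others. The 95% confidence interval lay wholly within a 2-fold change in either direction for 28 of 40 members under CO2-O2, for 26 under isoflurane and for 33 in the mean of both arms. The median half-width of the interval was 0.52 in a single arm. Within groups, members varied with a median SD of 0.31 between rats, from 0.08 for Gstk1 to 1.17 for Ugt2b7, while the median over all features was 0.15. A p that missed the threshold does not show that the groups did not differ.

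**Figure D1:**
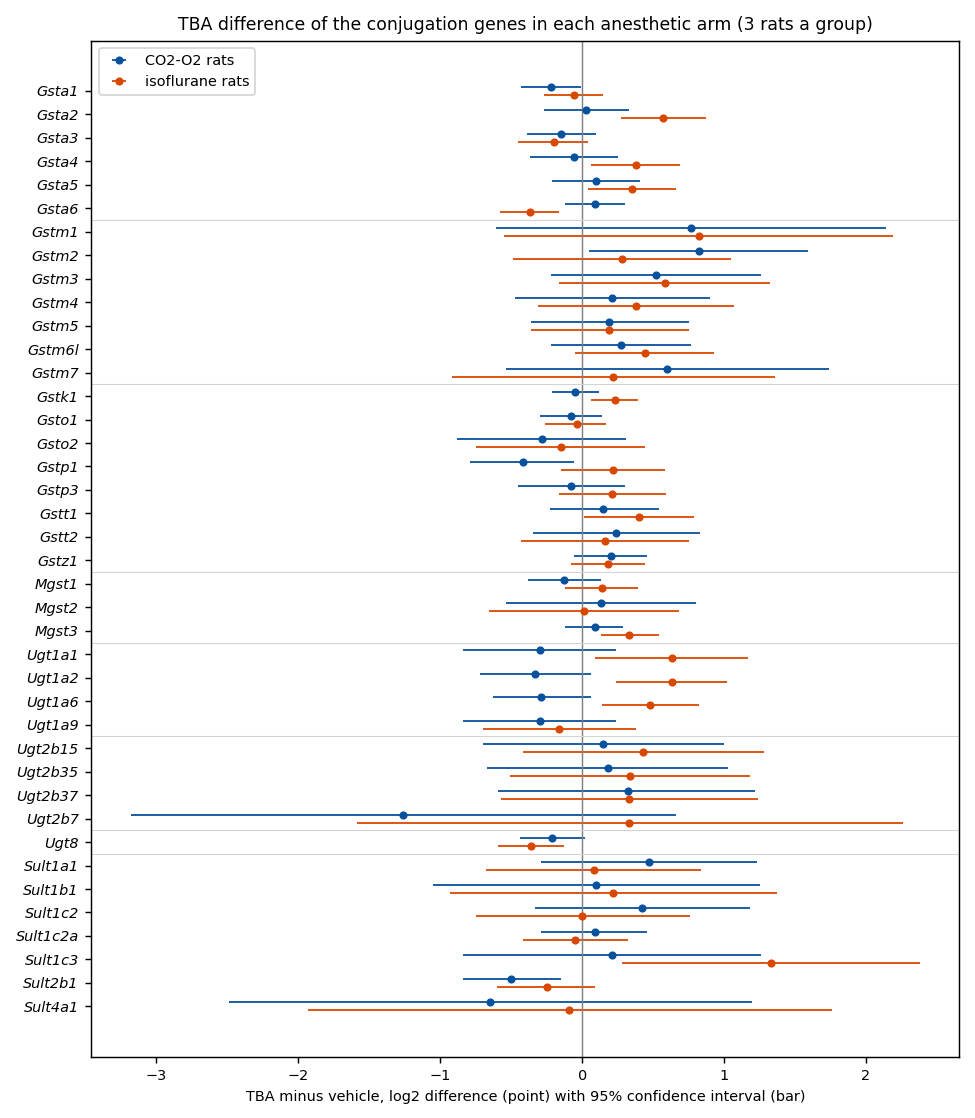
TBA minus vehicle (log2 difference, horizontal axis) for each of the 40 members, in CO2-O2 rats (blue) and isoflurane rats (orange), 3 rats a group; points are fitted differences and bars 95% confidence intervals. The intervals of Gstm1, Ugt2b7 and Sult4a1 reach past a 2-fold change in both arms, those of Gsto1 and Gsta1 stay within it, and the Ugt1a1, Ugt1a2 and Ugt1a6 points lie on opposite sides of 0 in the 2 arms.

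Among the alpha-class glutathione S-transferases (Gsta), abundant in the proximal tubule, differences under CO2-O2 ran from -0.22 to 0.10. Gsta2, which also reduces organic peroxides, stood at 7.67, 7.98 and 7.61 in the vehicle and 7.74, 7.87 and 7.73 in the TBA rats under CO2-O2. Under isoflurane it stood at 7.67, 7.42 and 7.84 in the vehicle and 8.41, 8.10 and 8.13 in the TBA rats. The groups overlapped under CO2-O2, and under isoflurane every TBA rat was above every control. The differences were 0.03 (95% interval -0.27 to 0.33) under CO2-O2 and 0.57 (0.27 to 0.87) under isoflurane, the second with limma's adjusted p = 0.0828.

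A second Gsta2 probe gave 0.01 and 0.48. Gsta4, which conjugates the aldehydes formed by lipid peroxidation, differed by -0.06 under CO2-O2 and by 0.38 under isoflurane (interval 0.06 to 0.69, adjusted p = 0.202 by limma). Gsta5 differed by 0.10 and 0.35. These genes are neighbours with similar sequences, and whether a probe also read its neighbours was not tested.

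Gsta6 ran the other way under isoflurane. Its levels were 2.91, 3.10 and 3.11 in the vehicle and 2.75, 2.55 and 2.71 in the TBA rats under isoflurane, and 2.73, 2.92 and 2.68 against 2.97, 2.88 and 2.75 under CO2-O2. Every isoflurane TBA rat was below every isoflurane control, and the CO2-O2 groups overlapped. The difference was -0.37 under isoflurane (interval -0.58 to -0.16, limma adjusted p = 0.0984) and 0.09 under CO2-O2, and the difference between arms was -0.46 (-0.76 to -0.16, adjusted p = 0.276). Gsta1 and Gsta3, the main alpha-class subunits that conjugate many electrophiles, were lower by small amounts in both arms, with differences of -0.22 and -0.06 for Gsta1 and of -0.15 and -0.20 for Gsta3. Of 2 other Gsta3 probes, one gave -0.23 and -0.09 and the other 0.04 and 0.31.

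All 7 mu-class genes (Gstm), which lie in 1 cluster on chromosome 2, had higher means in TBA rats in both arms, and 0 of them passed the threshold. Their differences ran from 0.19 to 0.82 in each arm. Gstm1, the major mu subunit of rat liver, stood at 1.13, 2.73 and 1.12 in vehicle and 3.34, 2.56 and 1.38 in TBA rats under CO2-O2. Under isoflurane it stood at 1.54, 2.10 and 0.24 in vehicle and 2.12, 1.92 and 2.30 in TBA rats. The groups overlapped in both arms, and the 12 rats spanned 3.10 log2 units. The differences were 0.77 (interval -0.61 to 2.14) and 0.82 (-0.55 to 2.19), with adjusted p = 0.611 and 0.529 by limma.

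Gstm2 stood at 0.86, 0.75 and 0.67 in the vehicle and 2.26, 1.66 and 0.81 in the TBA rats under CO2-O2, where TBA rat 3 fell within the range of the controls. Its differences were 0.82 (interval 0.05 to 1.59, limma adjusted p = 0.324) and, under isoflurane, 0.28 (-0.49 to 1.05). Gstm3 differed by 0.52 and 0.58, Gstm7 by 0.60 and 0.22, and Gstm6l by 0.27 and 0.44. The mean levels of Gstm3 and Gstm6l were low, at -5.24 and -3.99. A second probe of Gstm3 was well above background only on 2 TBA arrays under CO2-O2, and that of Gstm6l on no array. Gstm5 had 0.19 in both arms. Against the slide 1 controls alone, the single TBA rat of that slide gave -0.28 for Gstm1, 0.05 for Gstm2, 0.34 for Gstm3 and 0.13 for Gstm7, so the direction of Gstm1 turned. Levels of several of these genes varied together from rat to rat, in 9 of 21 pairs tested, so the shared direction of the 7 genes is not 7 separate observations.

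Gstm4 showed how a single spot can set a difference. Its brightest probe differed by 0.21 under CO2-O2 and its other probe by 2.97. That other probe read -7.48 in vehicle CO2-O2 rat 2, where the brightest probe read 0.80, while in the other 11 rats it lay between -0.36 and 0.90. Under isoflurane the 2 probes gave 0.38 and 0.27.

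Of the other cytosolic classes, Gstp1, the pi-class form that also restrains stress kinases, stood at 6.74, 6.92 and 6.34 in the vehicle and 6.43, 6.25 and 6.06 in the TBA rats under CO2-O2. Under isoflurane its levels were 6.31, 6.18 and 6.13 in the vehicle and 6.67, 6.21 and 6.39 in the TBA rats. The groups overlapped in both arms. The difference was -0.42 under CO2-O2 (interval -0.79 to -0.06, limma adjusted p = 0.289) and 0.22 under isoflurane (-0.15 to 0.58), and its other probes gave -0.39 and -0.53 under CO2-O2 and 0.00 and 0.27 under isoflurane. On slide 1 alone the difference was -0.61, and the difference between arms was 0.64 (0.12 to 1.16, adjusted p = 0.342 by limma).

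Gstt1, the theta form that conjugates small halogenated molecules, differed by 0.15 and 0.40, and Gstk1, the kappa form of mitochondria and peroxisomes, by -0.05 and 0.23. For both, the isoflurane TBA rats were all above their controls, with limma's adjusted p = 0.269 for Gstt1 and 0.16 for Gstk1. Gsto1, an omega form that reduces dehydroascorbate, differed by -0.08 (interval -0.30 to 0.14) and -0.04 (-0.26 to 0.17), so a change beyond 0.30 in either direction lay outside both intervals. Gstz1, the maleylacetoacetate isomerase of tyrosine breakdown, differed by 0.20 and 0.18. Gstt2, another theta form, differed by 0.24 and 0.16, Gsto2 by -0.28 and -0.15, and Gstp3 by -0.08 and 0.21. On slide 1 alone Gstt1 gave -0.24 and Gstz1 0.01.

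The membrane-bound transferases Mgst1, Mgst2 and Mgst3 act on lipid peroxides, and Mgst2 and Mgst3 on leukotrienes as well. Mgst3 stood at 7.46, 7.63 and 7.59 in the vehicle and 7.55, 7.63 and 7.77 in the TBA-dosed rats under CO2-O2, and at 7.55, 7.51 and 7.42 against 7.90, 7.93 and 7.66 under isoflurane. Only the isoflurane groups did not overlap. The differences were 0.09 and 0.33 (interval 0.13 to 0.54, limma adjusted p = 0.115), while another of its 3 probes gave 0.04 under isoflurane. Mgst1 differed by -0.13 and 0.14, and Mgst2 by 0.13 and 0.01.

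**Figure D2:**
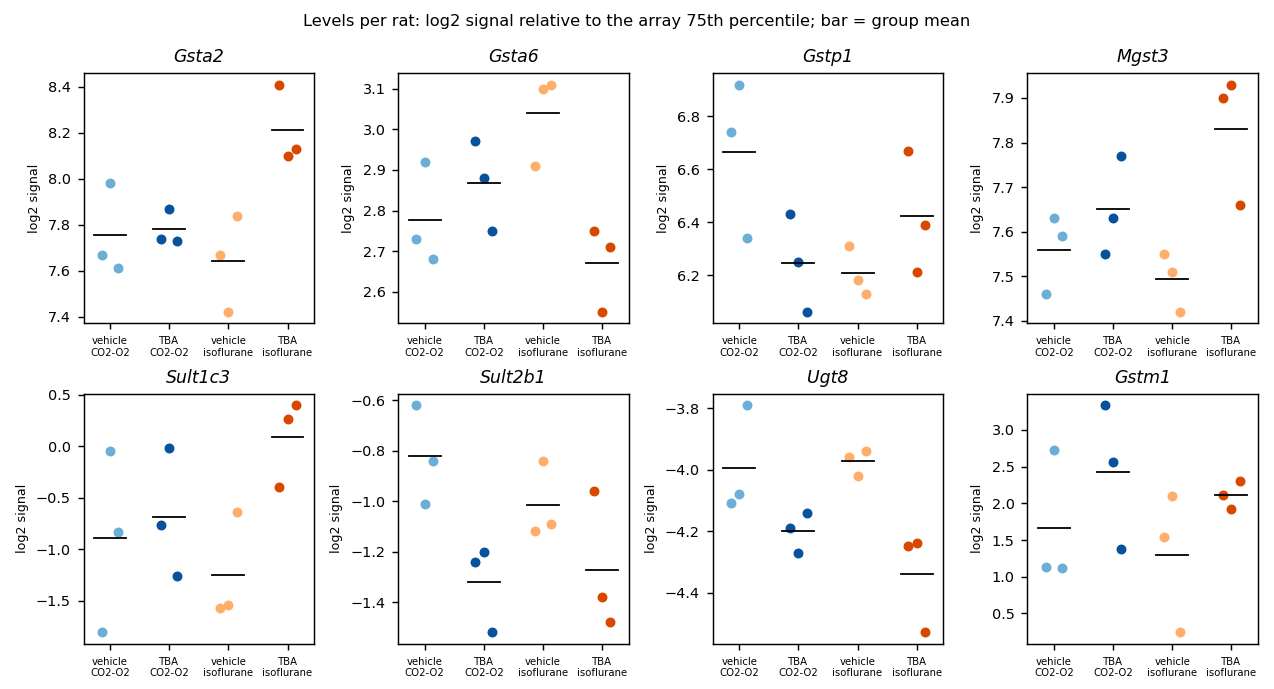
Level in each rat (log2 signal relative to the 75th percentile of the array, vertical axis) of 8 members in the 4 groups; points are rats, 3 a group, and bars group means. The isoflurane TBA rats lie above their controls for Gsta2, Mgst3 and Sult1c3 and below them for Gsta6 and Ugt8, while the groups overlap in both arms for Gstp1 and Gstm1; vertical axes differ between panels.

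Ugt1a1, Ugt1a2 and Ugt1a6 had TBA differences of opposite sign in the anesthetic arms. Ugt1a1, the bilirubin-conjugating form, stood at 1.99, 2.53 and 1.94 in the vehicle and 1.66, 2.30 and 1.62 in the TBA rats under CO2-O2. Under isoflurane it stood at 1.67, 1.48 and 1.97 in the vehicle and 2.63, 1.98 and 2.40 in the TBA rats. The CO2-O2 groups overlapped. Under isoflurane every TBA rat was above every control, with vehicle rat 3 and TBA rat 2 nearly level. Ugt1a1 differed by -0.30 (interval -0.84 to 0.24) under CO2-O2 and by 0.63 (0.09 to 1.17) under isoflurane, with limma's adjusted p = 0.618 and 0.219.

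Ugt1a2 stood at 4.43, 4.88 and 4.45 in vehicle and 4.18, 4.55 and 4.03 in TBA rats under CO2-O2, and at 4.19, 4.01 and 4.29 against 5.06, 4.58 and 4.75 under isoflurane. The isoflurane groups did not overlap. Its differences were -0.33 and 0.63 (interval 0.24 to 1.02, limma adjusted p = 0.115). Ugt1a6, which conjugates planar phenols, differed by -0.29 and 0.48. The effect under isoflurane minus that under CO2-O2 was 0.93 for Ugt1a1, 0.97 for Ugt1a2 (interval 0.41 to 1.52) and 0.76 for Ugt1a6 (0.28 to 1.25), with adjusted p = 0.348, 0.244 and 0.276 by limma. With scan day as a term these were 1.16, 1.19 and 0.91, and on slide 1 alone the CO2-O2 differences were -0.54, -0.55 and -0.43.

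In this test of the difference between arms 0 of 40 members and 0.0% of all features passed, while 7 members (17.5%) and 12.1% of features had an unadjusted p under 0.05. The vehicle groups themselves differed in mean. Isoflurane minus CO2-O2 in vehicle rats was -0.45 for Ugt1a1 (interval -0.99 to 0.09), -0.42 for Ugt1a2 (-0.81 to -0.03) and -0.42 for Ugt1a6 (-0.77 to -0.08), with limma's adjusted p = 0.349, 0.238 and 0.194. The 2 vehicle groups were on different slides and scan days. Beside these values, 8 of 10 markers of the S3 segment of the proximal tubule were lower under isoflurane in vehicle rats (median -0.47). All 10 had a higher TBA effect under isoflurane than under CO2-O2 (median 0.45). In either comparison 0 were called by limma (5 and 2 at an unadjusted p under 0.05). This was not particular to S3, since all 5 measured fibroblast markers had the same 2 directions (medians -0.43 and 0.47, 0 called). All 6 intercalated cell markers had the opposite ones (medians 0.13 and -0.18). The part of these cell types in the Ugt1a values was not tested. Another probe of Ugt1a6 gave -0.52 and 0.18 for the TBA differences. Because Ugt1a transcripts share their downstream exons, a probe placed there reads several of them, and the position of the probes was not tested.

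**Figure D3:**
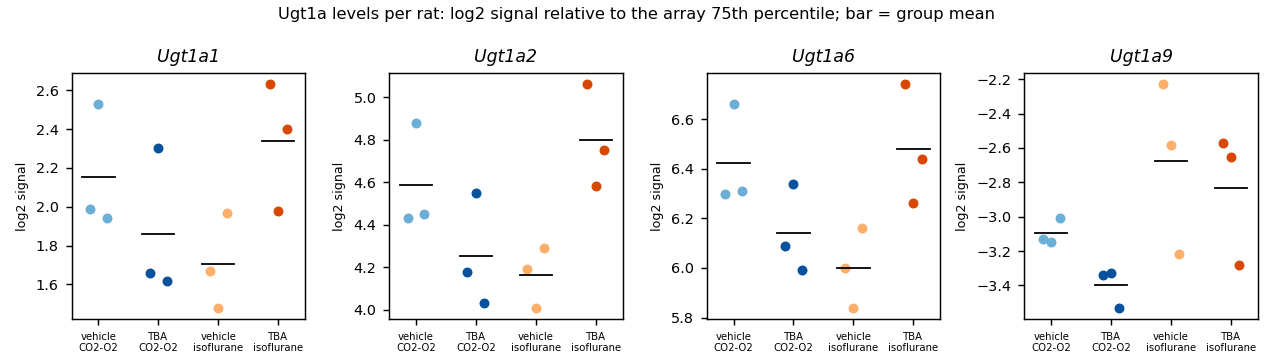
Level in each rat (log2 signal relative to the 75th percentile of the array, vertical axis) of 4 Ugt1a genes; points are rats, 3 a group, and bars group means. For Ugt1a1, Ugt1a2 and Ugt1a6 the TBA mean is below the vehicle mean under CO2-O2 and above it under isoflurane, and Ugt1a9 is below in both arms.

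Ugt1a9 differed by -0.30 and -0.16, and under CO2-O2 its TBA rats were all below the controls. Ugt2b15, Ugt2b35 and Ugt2b37, of the family that conjugates steroids and bile acids, differed by 0.15 to 0.32 under CO2-O2 and by 0.33 to 0.43 under isoflurane, with 0 called. Their intervals reached beyond a 2-fold change in at least 1 direction under isoflurane. Ugt2b15 stood at 1.32, 0.57 and 1.12 in the vehicle and 0.87, 1.53 and 1.05 in the TBA-dosed rats under CO2-O2, and at 1.61, 1.05 and -0.06 against 1.24, 1.58 and 1.07 under isoflurane. The groups overlapped in both arms.

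Ugt2b7 had the largest SD within groups of the 40 members. Its levels were -1.58, 1.58 and -0.22 in vehicle and -1.60, -1.94 and -0.45 in TBA rats under CO2-O2, and -0.91, -1.79 and 0.15 against 0.56, -1.79 and -0.32 under isoflurane. All groups overlapped. The differences were -1.26 (interval -3.18 to 0.66) and 0.33 (-1.59 to 2.26), so each interval held both higher and lower values.

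Ugt8 makes galactosylceramide and does not act on drugs. It stood at -4.11, -4.08 and -3.79 in the vehicle and -4.19, -4.27 and -4.14 in the TBA-dosed rats under CO2-O2, and at -3.96, -4.02 and -3.94 against -4.25, -4.24 and -4.53 under isoflurane. It was the only one of the 40 members whose groups did not overlap in the same direction in both arms, with all TBA rats lower, against 1.19% of features for that direction and 3.1% for the other. Its differences were -0.21 and -0.36, and the mean of both arms was -0.28 (interval -0.45 to -0.12) with limma's adjusted p = 0.0757, the lowest of any member in that comparison. On slide 1 alone the difference was -0.15. A second, dimmer probe of Ugt8 was well above background on 1 vehicle array of each arm and on 0 TBA arrays.

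Among the sulfotransferases, Sult1c3 had the highest difference under isoflurane of all members. Its levels were -1.57, -1.54 and -0.64 in vehicle and -0.40, 0.26 and 0.40 in TBA rats under isoflurane, and -1.81, -0.05 and -0.83 against -0.77, -0.02 and -1.26 under CO2-O2. The isoflurane groups did not overlap and the CO2-O2 groups did. The differences were 1.33 under isoflurane (interval 0.28 to 2.38, limma adjusted p = 0.183) and 0.21 under CO2-O2 (-0.84 to 1.26), and a second probe gave 1.22 and 0.24. On slide 1 alone the CO2-O2 difference was -0.36. The difference between arms was 1.12 (-0.36 to 2.61, adjusted p = 0.528).

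Sult2b1, which sulfates cholesterol and related hydroxysteroids, stood at -0.62, -1.01 and -0.84 in vehicle and -1.24, -1.20 and -1.52 in TBA rats under CO2-O2. Under isoflurane it stood at -1.12, -0.84 and -1.09 in vehicle and -0.96, -1.38 and -1.48 in TBA rats. The CO2-O2 groups did not overlap, and isoflurane TBA rat 1 fell within the range of its controls. The differences were -0.50 and -0.25, with a mean of -0.38 (interval -0.62 to -0.13, limma adjusted p = 0.111). On slide 1 alone the difference was -0.70.

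Sult1a1, the main phenol sulfotransferase, differed by 0.47 (interval -0.29 to 1.23) and 0.08 (-0.68 to 0.84). Sult1b1, which sulfates phenols and thyroid hormones, differed by 0.10 and 0.22, with levels that spanned 2.24 log2 units over the 12 rats. Sult1c2 differed by 0.42 and 0.00, its near relative Sult1c2a by 0.09 and -0.05, and Sult4a1, a brain form with no settled substrate, by -0.65 and -0.09 at the edge of detection.

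The second question of the design is whether the gas used at the kill changed these genes. Isoflurane against CO2-O2 gave 0 of 40 called members in vehicle rats (0.105% of features called), in TBA rats (0.00676%) and in the mean of both (0.287%). At an unadjusted p under 0.05 there were 5 members in vehicle rats (12.5%, against 18.7% of features), 5 in TBA rats (12.5%, against 10.8%) and 2 in the mean of both (5.0%, against 17.2%). The median difference was -0.10 in vehicle rats, where 29 of 40 members were lower under isoflurane, and 0.08 in TBA rats, where 27 of 40 were higher. The groups did not overlap for 0 members on the higher and 4 on the lower side in vehicle rats (14.9% and 14.2% of features), and for 6 and 1 in TBA rats (7.91% and 7.21%). In no member did they fail to overlap the same way in both, against 1.79% and 1.3% of features. With scan day as a term the median was -0.31 in vehicle rats and -0.16 in the mean of both. In the mean of both, the highest differences were those of Ugt1a9 (0.49, interval 0.11 to 0.88) and Gstp3 (0.35, 0.09 to 0.61), with limma's adjusted p = 0.195 and 0.186.

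Gstm3 (0.29), Sult1c3 (0.21) and Gstt1 (0.18) followed on the higher side of that mean, and Sult4a1 (-0.56), Sult1a1 (-0.49), Gstm7 (-0.38), Gstm5 (-0.37) and Sult1b1 (-0.35) were at the lower end. With scan day as a term Gstt1 gave -0.21 and Sult1c3 -0.37, which turned their direction. In vehicle rats Gstp1 was lower under isoflurane by a difference of -0.46 (interval -0.83 to -0.09), and in TBA rats it differed by 0.18 (-0.19 to 0.54). The comparisons of TBA and of anesthetic use the same groups, so their values are not separate evidence.

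Within groups, the levels of some neighbouring genes varied together from rat to rat. No correlation was computed between members of different clusters, so whether this is particular to neighbours was not tested. For each gene the group mean was taken from each rat's level, and the remaining deviations of the 12 rats were correlated between genes. All pairs within 9 clusters of related genes were used. They are called neighbours here, whether or not they are adjacent. The test was exact permutation of rats within groups (1296 rearrangements, two-sided, smallest possible p = 0.000772). Of 45 neighbour pairs, 19 passed an adjusted p under 0.05 over the 53 relations computed, and all 19 were positive. These relations were chosen after the values had been seen, so they describe these 12 rats.

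Ugt2b15, Ugt2b35 and Ugt2b37, whose start regions share the printed stretch, moved almost as 1 gene. Vehicle isoflurane rat 3 was the lowest of the 12 for all of them, at -0.06, 4.11 and 2.22, and vehicle isoflurane rat 1 was the highest, at 1.61, 5.77 and 3.94. The correlation was r = 0.997 (rho = 0.993, exact permutation p = 0.000772 each, adjusted p = 0.00454 each) for Ugt2b15 with Ugt2b37, and r = 0.995 for Ugt2b15 with Ugt2b35. Without the 2 rats farthest from the median these were 0.994 and 0.985, and among the 8 rats of the second scan day 0.997 and 0.998. Ugt2b7, in the same stretch of chromosome 14 and with the same 25 bases in its start window, had r = -0.637 with Ugt2b15 (rho = -0.650, exact permutation p = 0.0370 and 0.0455, adjusted p = 0.0785 and 0.0965), which missed the threshold. Values from -0.636 to -0.679 were found with the 3 genes.

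A second probe of Ugt2b37 did not follow the brightest probe of the same gene, at r = -0.53, and had r = 0.771 with Ugt2b7. Its TBA differences were -0.87 and 0.13, against 0.32 and 0.33 by the brightest probe. A second probe of Ugt2b15 had r = 0.738 with the brightest one. Over all members, 15 of 22 additional probes had r of at least 0.8 with the probe used and 3 had r under 0.5. Near-identical transcripts can reach the same probe, and the part of this in the Ugt2b values was not tested.

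Ugt1a2 and Ugt1a6 had r = 0.981 (rho = 0.937, exact permutation p = 0.000772 each, adjusted p = 0.00454 each), Ugt1a1 had r = 0.961 with Ugt1a6 and 0.963 with Ugt1a2 (exact permutation p = 0.00154 each, adjusted p = 0.00744 each), and Ugt1a9 had r = -0.213 to 0.013 with those 3. Without the 2 farthest rats Ugt1a2 with Ugt1a6 gave 0.969, and on the second scan day 0.980. In the Gstm cluster 9 of 21 pairs passed, with the strongest between Gstm1 and Gstm4 (r = 0.963, rho = 0.979, exact permutation p = 0.000772 each, 0.965 without the 2 farthest rats, 0.988 on the second scan day). Gstm1 and Gstm4 were high in TBA CO2-O2 rat 1 and low in vehicle isoflurane rat 3. Gstm2 and Gstm5 were in no pair that passed.

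Gsta2 and Gsta5 had r = 0.992 (rho = 0.986, exact permutation p = 0.000772 each, 0.987 without the 2 farthest rats and 0.990 on the second scan day), and both passed with Gsta4 (r = 0.836 and 0.820, exact permutation adjusted p = 0.0179 and 0.0237). Gsta3 passed with Gsta1 (r = 0.901, rho = 0.944, exact permutation adjusted p = 0.00454 each). No neighbour pair passed among Gstt, Gstp, Gsto or Sult1c genes, whose r ran from -0.641 to 0.499.

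**Figure D4:**
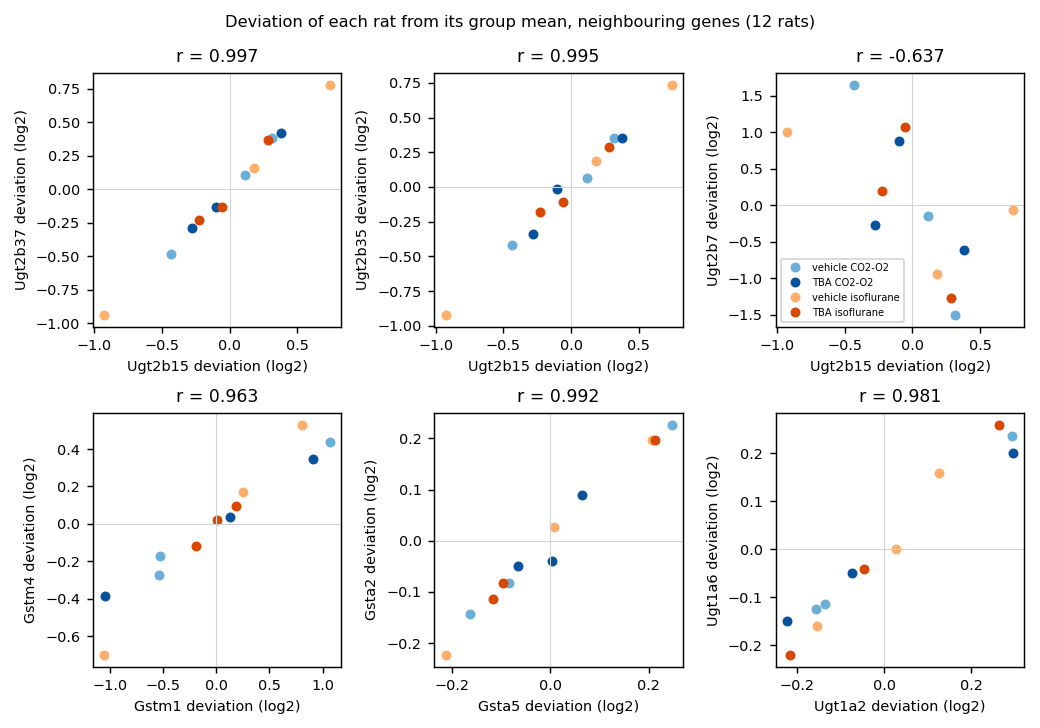
Deviation of each rat from its group mean (log2) for pairs of neighbouring genes, 1 gene on each axis; each point is a rat, coloured by group, and r is Pearson's correlation over the 12 rats. Points lie along a rising line for Ugt2b15 with Ugt2b37 and Ugt2b35, Gstm1 with Gstm4, Gsta5 with Gsta2 and Ugt1a2 with Ugt1a6, and scatter downwards for Ugt2b15 with Ugt2b7.

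Tubule markers were set beside these values, since in bulk tissue fewer cells of a type and less RNA per cell cannot be told apart. Of the 11 proximal tubule S1-S2 markers 9 were higher in TBA rats in each arm, with medians of 0.28 and 0.24. By limma's threshold 1 passed under CO2-O2, 0 under isoflurane and 2 (Slc22a8 and Slc5a12) in the mean of both. At limma's unadjusted p under 0.05 there were 6, 7 and 8 of the 11, against 14.3%, 17.8% and 19.0% of features. The mean level of the S1-S2 markers was 5.34 to 5.42 in vehicle and 5.56 to 5.73 in TBA rats under CO2-O2, and 5.48 to 5.62 against 5.67 to 5.77 under isoflurane. The groups did not overlap in either arm. The 10 markers of the S3 segment were higher for 5 under CO2-O2 and for 9 under isoflurane, with medians of 0.01 and 0.35, and their mean level under isoflurane was 3.17 to 3.33 in vehicle and 3.34 to 4.13 in TBA rats. The part of the tubule markers in the differences of the conjugation genes was not tested.

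The deviations of Gstm1, Ugt2b15, Ugt1a2 and Gsta2 had r = -0.345 to 0.483 with the S1-S2 and S3 marker levels, and 0 of these 8 relations passed an exact permutation test (adjusted p = 0.360 to 0.995). Ugt2b15 with the S1-S2 level had r = 0.397 over the 12 rats, -0.087 without the 2 farthest and 0.891 on the second scan day. Of 7 genes of liver, where these enzymes are also abundant, 5 were lower in TBA rats in each arm. In the mean of both arms their median was -0.97 and 0 were called. By limma, 4 of the 7 had an unadjusted p under 0.05 there, against 19.0% of features. The mean level of the liver genes was -1.39 to -0.48 in vehicle and -2.31 to -0.66 in TBA rats under CO2-O2, and -0.96 to 0.14 against -2.0 to -0.20 under isoflurane, so the groups overlapped. Their part in the conjugation gene values was not tested.

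Genes that supply, follow or control conjugation were taken from 8 lists, of which 62 of 66 genes were measured. The lists were written with earlier results of these data known. Counts over them therefore describe these genes and are not a test against all features. In the mean of both arms 4 rose and 0 fell by limma's adjusted threshold, beside 1.4% of all features that rose and 0.49% that fell, and in either arm alone 0 passed. Glutathione supply held 1 of them among 8 measured genes, with a list median of 0.03. Oplah, which recovers glutamate from oxoproline, stood at 4.13, 3.87 and 3.96 in vehicle and 4.10, 4.16 and 4.16 in TBA rats under CO2-O2, and at 3.92, 3.91 and 3.87 against 4.40, 4.24 and 4.21 under isoflurane. The groups overlapped under CO2-O2 and not under isoflurane. Oplah rose by 0.27 ± 0.06 (SE) in the mean of both arms (adjusted p = 0.0438 by limma).

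Slc26a1, a sulfate transporter among the 5 measured genes of sulfate donor supply, stood at 5.66, 5.87 and 5.74 in the vehicle and 6.37, 6.15 and 6.39 in the TBA-dosed rats under CO2-O2, and at 5.99, 5.80 and 5.64 against 6.41, 6.23 and 6.01 under isoflurane. All TBA rats were above the controls of their arm, and the mean difference was 0.47 (limma adjusted p = 0.0364). Among 8 genes of the mercapturate steps, Acy3, which removes the acetyl group of mercapturates, rose by 0.46 (limma adjusted p = 0.0376), while the list median was -0.10. On that list Anpep differed by -0.45 and Ggt1 by -0.28. Acy3 is also on the S3 marker list.

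Among 7 efflux transporters, Abcc2, the apical pump for glutathione and glucuronide conjugates, stood at 1.49, 1.65 and 1.57 in the vehicle and 1.88, 2.18 and 2.22 in the TBA-dosed rats under CO2-O2, and at 1.82, 1.84 and 1.45 against 1.93, 2.41 and 2.14 under isoflurane. The groups did not overlap in either arm, and Abcc2 rose by 0.49 (limma adjusted p = 0.0486). Its neighbour on the list, the drug pump Abcb1a, differed by -0.93 and missed the threshold (limma adjusted p = 0.0788). Over the other settings tried, arrays left out included, the differences were 0.36 to 0.53 for Slc26a1, 0.32 to 0.52 for Acy3, 0.23 to 0.31 for Oplah and 0.43 to 0.55 for Abcc2. With each array left out in turn, Slc26a1 passed in 3 of 12 fits, Acy3 in 2, and Oplah and Abcc2 in 0.

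None of the 5 measured genes of UDP-glucuronate supply, the 12 other conjugation and detoxification enzymes, the 4 deconjugation enzymes or the 13 regulators passed. Ugdh, which makes UDP-glucuronate, differed by 0.14 in the mean of both arms, Pgm2 by -0.17 and the transporter Slc35d1 by -0.19. The histamine methyltransferase Hnmt differed by -0.54 and the indole methyltransferase Inmt by 0.53. Of the deconjugation enzymes, the sulfatases Sts and Arsb differed by -0.10 and -0.09 and the glucuronidase Gusb by -0.05. The quinone reductase Nqo1 differed by -0.47 (limma adjusted p = 0.161). Gclm and Gclc, the subunits of the first enzyme of glutathione synthesis, differed by -0.48 and -0.28, and glutathione reductase Gsr by 0.12 (limma adjusted p = 0.469, 0.604 and 0.314). The antioxidant regulator Nfe2l2 (Nrf2) differed by 0.15 (limma adjusted p = 0.235). Ahrr, the repressor induced by the Ah receptor, differed by -0.86 (limma adjusted p = 0.101), the nuclear receptor Nr1i3 by -0.25 and the Nfe2l2 inhibitor Keap1 by -0.16.

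**Figure D5:**
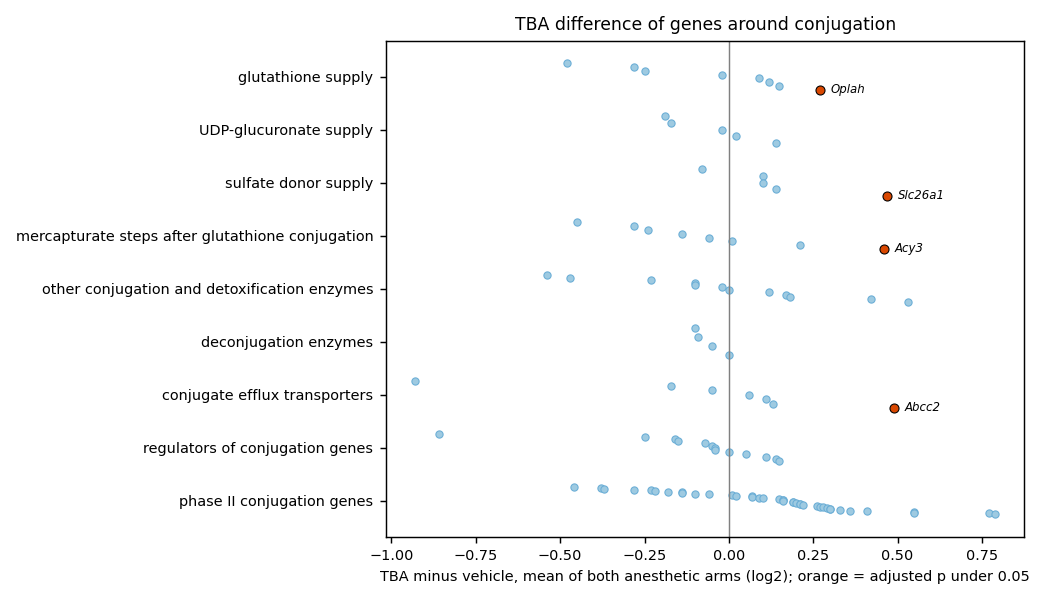
TBA minus vehicle, mean of both anesthetic arms (log2 difference, horizontal axis), for genes of 8 lists around conjugation and for the 40 phase II members; each point is a gene, spread vertically only for legibility, and orange marks an adjusted p under 0.05 in limma. The 4 orange genes (Oplah, Slc26a1, Acy3 and Abcc2) lie to the right of 0, and no member is orange.

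For 13 further genes with a probe no level is given, because none was well above background on all arrays of a group. They were Gstm6, Gstt4, Sult1d1, Sult1e1, Sult2a1, Sult2a2, Sult2a6, Sult6b1, Ugt2a1, Ugt2a3, Ugt2b, Ugt2b1 and Ugt2b10, and 11 of them were above background on no array. Just outside the rule, 1 probe of Ugt2b was above background on 2 of 3 vehicle CO2-O2 arrays. Just inside it, Mgst2 and Sult4a1 missed 1 TBA isoflurane array each.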

How the data were processed

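RNA of 12 renal cortices, 3 rats in each of 4 groups, was hybridised to 1-colour (Cy3) Agilent arrays. Per the file headers and the submitters' processing notes, the deposited intensity values come from Agilent Feature Extraction 10.7, whose processed signal is background-corrected. The authors' deposited series table holds a ratio to each array's 75th percentile, as found from its values (column medians 0.101 to 0.107, floor 0.003). Its columns matched scanner files of other replicates of the same group (r = 0.9999 to 1), so the scanner files were used and the table served as an alternative. The genome build of the array design is not given in the sources used here.

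Each array's 75th percentile of log2 processed signal was subtracted. Of 61657 probes, 27460 were named with 1 symbol and 34197 with none, by RefSeq transcript accession (GRCr8 table). Outlier-flagged spots, 0 to 9 an array, were left out. Probes scored well above background in every rat of some group were kept (40216), and the brightest stood for its gene, giving 29603 features, 11689 of them named. limma 3.58.1 (R 4.3.3) fitted 1 mean per group with 8 residual degrees of freedom, and p-values were Benjamini-Hochberg adjusted over all features. The fit was tested on simulated data. With 12 arrays, their number limits the precision.

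Members and lists were chosen with earlier results of these data known. Members named were the 5 highest and 5 lowest in each TBA comparison, in the difference between arms and in the mean anesthetic comparison, plus a list of well-known enzymes. Of the lists around conjugation, called genes and up to 3 with the largest differences were named. Gsta5, Gstm4, Gstm6l, Gsto2, Gstt2, Sult1c2a, Ugt2b15, Ugt2b37, Gclc, Gsr and Nfe2l2 were named after their values were seen. Some listed genes are not reported here and are left out of the list counts and levels. Alternatives covered background correction, normalization, dim-probe filter, probe choice, spread, slide, scan day, replicate number, the submitters' table and leaving out each array.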

Additional observations from a re-analysis of the deposited data

How the results depend on the processing

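The count of called members was 0 in 167 of 170 combinations of comparison and setting, over 12 settings that left out an array and 15 others. It was 1 under isoflurane with normexp background correction (Gsta2, 0.51, limma adjusted p = 0.0492), 1 there with a trended robust spread (Gsta2, 0.57, adjusted p = 0.0464), and 1 in the mean of both arms with quantile normalization (Gsta1, -0.29, adjusted p = 0.0488). Leaving out each array in turn gave 0 to 0 called members in all 7 comparisons. The median over the members then ran from 0.01 to 0.14 for TBA under CO2-O2, from 0.13 to 0.32 under isoflurane and from 0.09 to 0.20 in the mean of both.

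Medians moved by more than the replicate spread in 6 of 170 cases, all with slide or scan day as a term or with the arrays of slide 1 alone: to -0.12 for TBA under CO2-O2, to -0.31 for anesthetic in vehicle rats and to -0.16 for anesthetic in the mean of both. The cause was not tested. Slide as a fixed term was not run where it could not be estimated, which includes TBA under isoflurane. Replicate numbers did not pair the rats, since deviations of same-numbered rats correlated at -0.133 to 0.133. With the replicate number as a block the count stayed at 0 in all 7 comparisons, while 0 to 167 of 29603 features were called.

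Of the genes around conjugation, Acy3 passed in 8 of 11 other settings, Slc26a1 in 7, Oplah in 6 and Abcc2 in 5. With 3 rats a group, the median half-width of the members' 95% intervals in a single arm was 0.52.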
